A study of Homo sapiens with 8 samples.

Results

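Oxidative phosphorylation (OXPHOS) in the inner mitochondrial membrane is carried out by 5 protein complexes, and 90 genes of the nuclear genome that encode their subunits or the NDUFAF assembly factors of complex I were found among the 17561 genes of the expression table. They were chosen by symbol: the families beginning with NDUF, UQCR, COX4 to COX8 or ATP5, and SDHA to SDHD, without read-through, antisense and pseudogene symbols, which left out 20 further symbols. The 90 genes comprised 7 core subunits, 29 accessory subunits and 8 assembly factors of complex I, 4 subunits of complex II, 9 of complex III, 15 of complex IV (with NDUFA4 and its paralog NDUFA4L2) and 18 of complex V. The samples were HepG2 cells, an established human hepatocarcinoma line, transfected with pGRHL2 or with pcDNA3, and RNA was collected 48 h later from 4 cultures per plasmid that the study describes as independent biological replicates. pGRHL2 carries the cDNA of GRHL2, a transcription factor of epithelial cells, fused to a flag tag behind the EEF1A1 promoter and also expresses a green fluorescent protein, whereas pcDNA3 is an empty vector, so that insert and backbone cannot be told apart. Transfection was transient and no sorting of transfected cells is described. The comparison asked which transcripts differ when these cells receive GRHL2.

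Complexes I and II pass electrons from NADH and succinate to ubiquinone, complex III passes them on to cytochrome c and complex IV to oxygen, and the proton gradient that complexes I, III and IV build drives ATP synthesis by complex V. Most subunits are encoded in the nucleus and imported, and they must be joined to the few core subunits that mitochondria encode themselves. Transcription of the nuclear genes is known to involve NRF1, GABP and YY1, ERR receptors and their PGC-1 coactivators, and hepatocytes rely on the pathway for gluconeogenesis and urea synthesis.

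The deposited values are on a log2 scale, per the methods regularized log2 values divided by transcript length, and the library medians lay between 6.71 and 6.73. Log2 values divided directly by a length in bases would lie far below these medians, so how length entered the values is not known. No read counts were used here, so the depth of each library is unknown. For every gene the mean of the pGRHL2 and pcDNA3 library with the same replicate number was the same for all 4 numbers, so that values mirror each other within a pair, a pair difference cannot tell which of the libraries moved, and the groups fail to overlap exactly where all 4 pair differences have the same sign. GRHL2 itself lay between 16.22 and 16.87 with pGRHL2 and between 6.61 and 7.25 with pcDNA3 (log2 FC 9.48 ± 0.57, SD, n = 4 pairs, limma with Benjamini-Hochberg adjustment, adjusted p = 4.84e-08; two-sided exact sign-flip p = 0.125, the smallest that 4 pairs allow). All 8 hepatocyte markers examined were in the table, with a median value of 13.2, as were 4 of 4 cholangiocyte markers. KRT19, EPCAM, SOX9 and KRT7, the cholangiocyte markers, lay at 13.90, 11.61, 9.57 and 5.35. Of the markers of other liver cells, 2 of 5 fibroblast, 2 of 5 immune and 2 of 4 endothelial genes were in the table. The immune genes lay far apart, with LYZ at 13.27 and CD14 at 4.02. COL1A1, PDGFRB, PECAM1 and VWF lay at 5.82, 5.08, 5.43 and 1.91. In bulk RNA, fewer cells of a type and less RNA per cell cannot be told apart.

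The promoters of 3 genes are printed first, since the factors named above act through short motifs in such windows: NDUFAF5, the OXPHOS gene with the most negative log2 FC, UQCR11, the gene with the most positive one, and SDHD, which holds matches to 3 of the motifs and varied widely between pairs. Each runs from 250 bases before to 50 bases after the transcription start, from RefSeq on GRCh38.p14, at chr20:13784778-13785077 on the plus strand for NDUFAF5, chr19:1605413-1605712 on the minus strand for UQCR11 and chr11:112086623-112086922 on the plus strand for SDHD. Capitals mark matches to the motifs on either strand.
NDUFAF5: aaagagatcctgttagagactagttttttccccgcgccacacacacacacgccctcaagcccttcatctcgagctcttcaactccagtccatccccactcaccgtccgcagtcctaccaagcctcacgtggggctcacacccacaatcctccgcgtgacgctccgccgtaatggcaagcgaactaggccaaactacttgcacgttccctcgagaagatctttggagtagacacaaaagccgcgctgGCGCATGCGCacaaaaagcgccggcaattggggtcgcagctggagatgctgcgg
UQCR11: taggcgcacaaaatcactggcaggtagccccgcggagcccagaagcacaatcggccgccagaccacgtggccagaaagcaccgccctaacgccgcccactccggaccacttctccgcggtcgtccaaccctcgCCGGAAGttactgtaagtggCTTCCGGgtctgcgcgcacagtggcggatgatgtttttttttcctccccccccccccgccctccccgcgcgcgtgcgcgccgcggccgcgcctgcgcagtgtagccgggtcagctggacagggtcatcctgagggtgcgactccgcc
SDHD: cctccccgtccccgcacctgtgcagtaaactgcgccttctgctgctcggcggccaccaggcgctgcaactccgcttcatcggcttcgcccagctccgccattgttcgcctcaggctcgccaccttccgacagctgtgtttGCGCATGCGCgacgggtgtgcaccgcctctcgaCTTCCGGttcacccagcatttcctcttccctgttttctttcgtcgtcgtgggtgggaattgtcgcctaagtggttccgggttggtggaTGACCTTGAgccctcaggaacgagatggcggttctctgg

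The motifs searched on both strands were CCGGAAG for ETS factors such as GABP, GCATGCGC for NRF1, AAGATGGCG for YY1, TCAAGGTCA for ERR receptors and AACCGGTT for Grainyhead factors, the family of GRHL2. In NDUFAF5 and in SDHD, the NRF1 motif matched on each strand of the same palindrome, so that 2 matches overlap. UQCR11 held 2 separate ETS matches, and SDHD also held 1 ETS and 1 ERR match. A promoter was given for 73 of the 90 OXPHOS genes. The ETS motif was present in 21 of them (28.8%), against 17.2% of the 12829 promoters of genes in the table and 10.3% of all 35116 promoters of that length. The NRF1 motif was present in 14 (19.2%, against 4.99% and 3.05%) and the YY1 motif in 7 (9.59%, against 3.39% and 1.75%), and 32 of 73 (43.8%) held at least 1 of these 3, against 23.4% and 14.0%. The ERR motif was found in SDHD alone among the 73 (1.37%, against 0.210% and 0.353%). The Grainyhead motif was in 0 of 73 promoters, against 18 of 12829 (0.140%) and 47 of 35116 (0.134%). A match is a description of the letters in the window, not of binding.

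None of the 90 OXPHOS genes passed the test between pGRHL2 and pcDNA3 (limma with a block for the replicate number, Benjamini-Hochberg adjusted p under 0.05), whereas 385 of all 17561 genes did (2.19%, 297 higher and 88 lower). At an unadjusted p under 0.05, there were 5 of 90 (5.56%), against 16.0% of all genes. They were COX6B2, which was higher, and NDUFAF5, NDUFV2, ATP5MF and NDUFA11, which were lower with pGRHL2. The groups did not overlap in 13 of 90 (14.4%), against 24.0% of all genes, with 6 higher (among them COX6B2, NDUFA4L2, NDUFA8, NDUFB8 and UQCR11) and 7 lower (ATP5MF, NDUFA11, NDUFAF2, NDUFAF4, NDUFAF5, NDUFV2 and SDHA). The log2 FC had a median of 0.00086 over the 90 genes and of 0.0017 over all genes, and it ranged from -0.20 in NDUFAF5 to 0.13 in UQCR11, with 46 values above and 44 below 0. The genes at the ends of these lists lie at chr20:13785007-13821580 (NDUFAF5), chr18:9102630-9134345 (NDUFV2), chr7:99448475-99466186 (ATP5MF), chr19:5891276-5904006 (NDUFA11), chr19:55349306-55354719 (COX6B2) and chr19:1597169-1605473 (UQCR11) on hg38. The 95% intervals of all 90 genes lay between -0.34, the lower bound of ATP5MF, and 0.30, the upper bound of NDUFB9. These bounds hold on a scale that shrinks the differences of weakly expressed genes. In a fit without the replicate block, 7 of the 90 genes passed the test, among them COX6B2 and NDUFB8, which were higher, and ATP5MF, NDUFA11, NDUFAF5 and NDUFV2, which were lower, beside 1821 higher and 1427 lower genes of the whole table. That fit counts more degrees of freedom than values with removed replicate means hold.

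Core subunits of complex I hold its flavin and iron-sulfur clusters. NDUFV2, the subunit with an iron-sulfur cluster next to the flavin, had values of 5.74, 5.78, 5.72 and 5.85 with pGRHL2 and of 5.97, 5.93, 5.99 and 5.86 with pcDNA3. The groups did not overlap, although pair 4 differed by only -0.02, and the log2 FC of -0.17 ± 0.11 (SD, n = 4 pairs) did not pass the test (adjusted p = 0.148). NDUFV1, which binds NADH and the flavin (0.08 ± 0.09), and NDUFS1, the largest subunit (0.02 ± 0.06), did not differ beyond the spread of their pairs. NDUFS3 had 3 of 4 pairs below 0 (-0.09 ± 0.12), and NDUFS7 and NDUFS8 had log2 FC of -0.02 ± 0.05 and 0.06 ± 0.06.

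Accessory subunits surround the core of complex I and are needed for its stability. NDUFA11, a membrane subunit, was at 5.59, 5.59, 5.60 and 5.58 with pGRHL2 and at 5.68, 5.68, 5.68 and 5.69 with pcDNA3. The difference was small and the same in all pairs (log2 FC -0.09 ± 0.01, SD, n = 4 pairs, adjusted p = 0.307), with the smallest SD of all 90 genes. NDUFB8 had a like pattern in the other direction, at 3.75, 3.76, 3.77 and 3.77 against 3.73, 3.72, 3.72 and 3.71 (log2 FC 0.04 ± 0.02, adjusted p = 0.522). NDUFA8 was the accessory subunit with the most positive log2 FC, at 0.12 ± 0.12 (adjusted p = 0.395). Its pairs 2 and 3 differed by 0.25 and 0.20 and its pairs 1 and 4 by 0.02 each. Of the 29 accessory subunits, 14 had a positive and 15 a negative log2 FC, with a median of -0.0014.

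Assembly factors join the modules of complex I and are not part of the finished enzyme. NDUFAF5, a methyltransferase-like protein that hydroxylates NDUFS7, had values of 9.07, 9.11, 9.10 and 9.15 with pGRHL2 and of 9.34, 9.31, 9.31 and 9.26 with pcDNA3. The groups did not overlap, the pairs differed by -0.27, -0.20, -0.20 and -0.11, and the log2 FC of -0.20 ± 0.07 (SD, n = 4 pairs; 95% interval -0.32 to -0.07) missed the threshold (adjusted p = 0.124). NDUFAF4 (-0.11 ± 0.10, adjusted p = 0.432) and NDUFAF2 (-0.07 ± 0.05, adjusted p = 0.576), which act on the ubiquinone module and at a late step of the peripheral arm, were also lower in all 4 pairs. The other direction was seen in NDUFAF1 (0.07 ± 0.19), where pair 4 alone contributed 0.34 and the log2 FC without it was -0.02. All 8 assembly factors lay below 0 in pair 3, and their log2 FC had a median of -0.03 with 5 of 8 below 0.

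Complex II oxidizes succinate and takes part in the tricarboxylic acid cycle, and all of its subunits are nuclear. SDHA, which carries the flavin, was at 5.22, 5.25, 5.24 and 5.26 with pGRHL2 and at 5.31, 5.28, 5.29 and 5.27 with pcDNA3, so that the groups did not overlap but differed by only -0.04 ± 0.03 (SD, n = 4 pairs, adjusted p = 0.667). SDHD, a membrane anchor whose promoter is shown above, was at 9.94, 10.08, 9.79 and 10.11 against 10.09, 9.94, 10.23 and 9.92. Pairs 1 and 3 were lower and pairs 2 and 4 higher with pGRHL2, and the log2 FC of -0.06 ± 0.29 was smaller than its spread (adjusted p = 0.835). SDHB, the iron-sulfur subunit (-0.05 ± 0.09), and SDHC, the other anchor (0.04 ± 0.11), did not differ beyond the spread of their pairs either.

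In complex III, UQCR11, a small supernumerary subunit, reached the most positive log2 FC of the 90 genes. Its values were 8.40, 8.29, 8.30 and 8.26 with pGRHL2 and 8.10, 8.20, 8.19 and 8.23 with pcDNA3. All 4 pairs were higher, pair 1 by 0.30 and the others by 0.03 to 0.10, for a log2 FC of 0.13 ± 0.12 (SD, n = 4 pairs, adjusted p = 0.359). UQCRC1, a core protein of the matrix side, had a log2 FC of 0.08 ± 0.09, and UQCRFS1, the Rieske iron-sulfur protein, one of -0.05 ± 0.08.

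Complex IV is cytochrome c oxidase, and several of its subunits exist as isoforms of different tissues. COX6B2, an isoform known from testis, was at 2.48, 2.51, 2.48 and 2.48 with pGRHL2 and at 2.42, 2.39, 2.42 and 2.42 with pcDNA3. It was higher in 4 of 4 pairs (log2 FC 0.07 ± 0.03, SD, n = 4 pairs) and had the smallest adjusted p of the 90 genes (0.118), at one of the lowest levels among them. NDUFA4L2, a paralog of NDUFA4 that hypoxia is known to induce, was also higher in all pairs (0.09 ± 0.10, adjusted p = 0.328), by 0.23 in pair 1 and by 0.01 to 0.08 in the others. COX7A1, the isoform of heart and skeletal muscle, was the gene with the lowest level at 2.04 with a log2 FC of -0.0031 ± 0.01 and a 95% interval from -0.04 to 0.04. The general subunits COX4I1 (-0.05 ± 0.11), COX5A (-0.00094 ± 0.17) and COX8A (-0.05 ± 0.15) had pair 3 as their lowest pair, and without it the log2 FC of each was above 0, at 0.0026, 0.07 and 0.02.

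Complex V is the ATP synthase. ATP5MF, a subunit of its membrane part, was at 7.28, 7.20, 7.08 and 7.22 with pGRHL2 and at 7.29, 7.37, 7.49 and 7.35 with pcDNA3. It was lower in all 4 pairs, with differences of -0.0081 in pair 1 and -0.41 in pair 3 (log2 FC -0.18 ± 0.17, SD, n = 4 pairs, adjusted p = 0.261). ATP5F1B, in the catalytic head with ATP5F1A, was at 13.89, 13.87, 13.90 and 13.88 against 13.87, 13.88, 13.86 and 13.88 (log2 FC 0.01 ± 0.02), with a 95% interval from -0.06 to 0.08, and ATP5F1A had a log2 FC of 0.0042 ± 0.02 with an interval from -0.08 to 0.09. ATP5F1D, a subunit of the central stalk, had the most positive value of the complex (0.11 ± 0.15, adjusted p = 0.492). ATP5IF1, the inhibitor that blocks ATP hydrolysis, had a log2 FC of -0.08 ± 0.14, with -0.29 in pair 3 and between -0.02 and 0.0045 in the others. The plot of values by library shows 8 of these genes on axes of the same height.

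**Figure D1:**
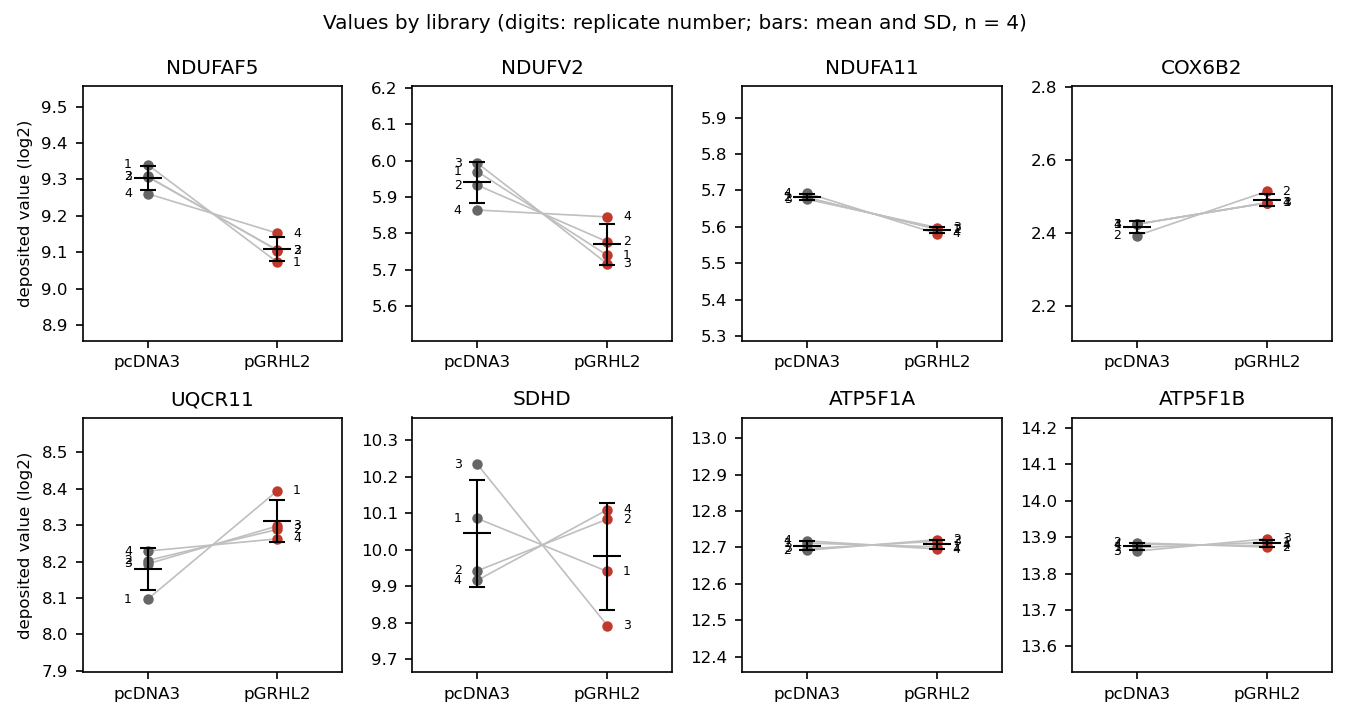
Deposited log2 values of 8 OXPHOS genes in each library, with pcDNA3 in grey and pGRHL2 in red, grey lines joining libraries of the same replicate number, and black bars for the mean and SD of 4 libraries. Since replicate means had been removed, these SDs are equal in both groups and leave out differences between replicates. NDUFAF5, NDUFV2, NDUFA11, COX6B2 and UQCR11 show groups that do not overlap, SDHD crosses, and in ATP5F1A and ATP5F1B the groups overlap.

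**Figure D2:**
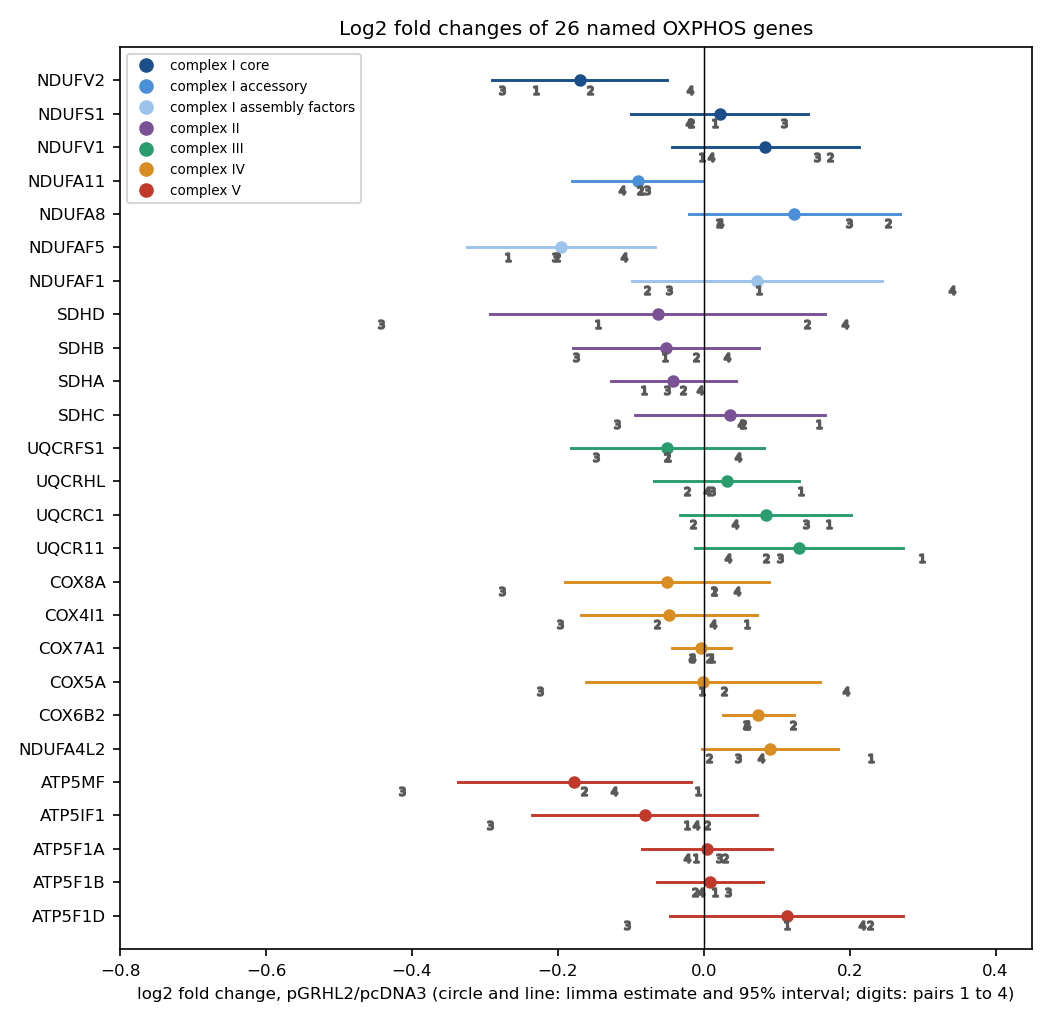
Log2 fold change (x axis) of 26 named OXPHOS genes (y axis, by complex), with circles for the limma estimate, lines for its 95% interval and digits for the 4 pairs. NDUFAF5 at -0.20 and UQCR11 at 0.13 are the extremes, and the digit 3 is the lowest of its gene in SDHD, COX8A, ATP5MF and ATP5IF1.

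The 4 pairs differed from each other. The median difference of the 90 OXPHOS genes was 0.02 in pair 1, 0.06 in pair 2, -0.18 in pair 3 and 0.06 in pair 4, whereas the median of all genes was between 0.00078 and 0.0059 in every pair. In pair 3, 72 of the 90 genes were lower with pGRHL2, compared with 38, 25 and 26 in pairs 1, 2 and 4, and 48.4% of all genes were lower in pair 3. Without pair 3, the median log2 FC of the 90 genes was 0.06, 17 (18.9%, against 15.5% of all genes in that fit) had an unadjusted p under 0.05 and 0 passed the test (smallest adjusted p = 0.157, ATP5MG). By group, the median in pair 3 was -0.22 in complex IV (13 of 15 lower), -0.20 in the accessory subunits of complex I (25 of 29), -0.17 in complex V (14 of 18), -0.15 in complex II (4 of 4), -0.15 in the assembly factors (8 of 8), -0.11 in complex III (5 of 9) and 0.04 in the core subunits of complex I (3 of 7). Differences between these groups were not tested. The hepatocyte markers stood apart in another pair, with a median of 0.32 in pair 2 and of -0.03, -0.05 and -0.13 in pairs 1, 3 and 4. The median SD of the pair differences was 0.13 over the 90 genes and 0.085 over all genes. The most variable genes were ATP5F1E (SD 0.40), a central stalk subunit of complex V, UQCRB (0.37) and NDUFA1 (0.32). ATP5F1E was at 9.20, 9.24, 8.82 and 9.22 with pGRHL2 and at 9.05, 9.0, 9.42 and 9.03 with pcDNA3, so that pair 3 went the other way from the rest and the log2 FC was -0.0027. The heat map of pair differences shows the pattern for 89 of the genes.

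**Figure D3:**
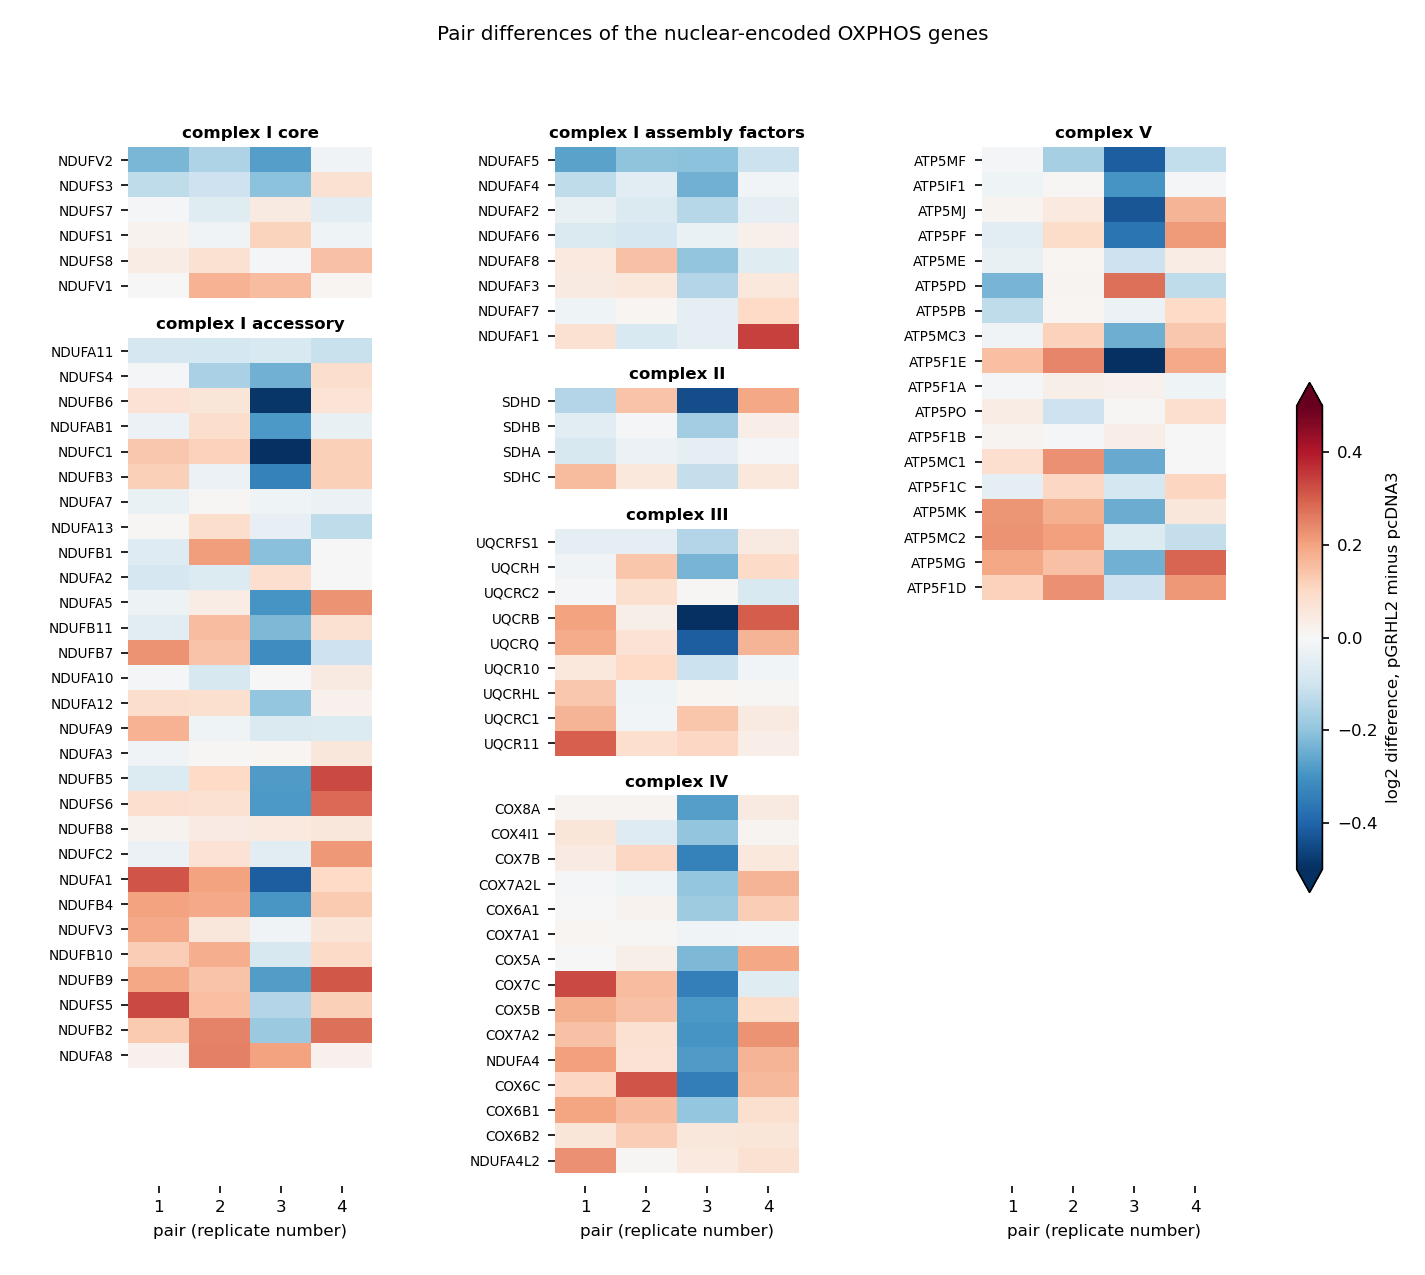
Log2 difference, pGRHL2 minus pcDNA3 (color), of 89 of the OXPHOS genes (rows, by complex and ordered by log2 FC) in each of the 4 pairs (columns). Column 3 is blue in 72 of 89 rows, while the core subunits of complex I shown are blue in 3 of 6.

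The genes that moved most in pair 3 had short coding sequences, a property the choice of symbols did not use. Classes of coding length were set after the values were seen. Of the 90 genes, 50 had a coding sequence of at most 450 bases, and their median difference was 0.08, 0.08, -0.24 and 0.08 in pairs 1 to 4, with 88.0% lower in pair 3. The 495 other genes of that class with a mean value of at least 7 had medians of 0.05, 0.05, -0.13 and 0.07, with 82.0% lower in pair 3. Between 450 and 700 bases, the pair 3 median was -0.14 in 19 OXPHOS genes and -0.08 in 843 other genes. Between 700 and 1000 bases it was -0.12 in 8 OXPHOS genes (100% lower) and -0.05 in 1103 other genes (65.1% lower). The level filter was set on the other genes of every class but not on the OXPHOS genes. The 13 OXPHOS genes over 1000 bases, among them ATP5F1A and ATP5F1B and the large core subunits of complex I, had medians between -0.01 and 0.01 in all pairs, and the 5633 other genes of that class had -0.04, -0.03, 0.02 and -0.05. Over the 90 genes, Spearman's rho of the pair difference with coding length was -0.36, -0.39, 0.47 and -0.17 in pairs 1 to 4, given as a description across genes that share the same libraries. Over 8074 other genes with a mean value of at least 7, a filter not set on the 90 genes, it was -0.17, -0.12, 0.38 and -0.45. With GC content, the 90 genes had a rho of 0.09, 0.04, 0.43 and -0.24 in pairs 1 to 4. In pair 3, the difference thus went with GC content as well as with coding length. The 76 mitochondrial ribosomal protein genes, whose products help to translate the mitochondrial subunits, had a median coding length of 585 bases, against 423 in the OXPHOS genes, and median differences of 0.03, 0.02, -0.09 and -0.0014. In pair 3, 60 of these 76 were lower with pGRHL2, beside 72 of the 90 OXPHOS genes. All 5 other nuclear components of the respiratory chain were also lower there, with a median of -0.26. Of 48 assembly factors outside the NDUFAF family, 29 were lower in pair 3, with a median of -0.03. In the tricarboxylic acid cycle, 8 of 14 genes were lower, with a median of -0.0034. The share of all genes lower in that pair was 48.4%. When a trend on coding length was removed from each pair, the median of the OXPHOS genes in pair 3 was -0.08, and it was -0.14 when trends on level, GC content and transcript length were removed. Library preparation and RNA quality of pair 3 were not examined, and their part in these differences was not tested.

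**Figure D4:**
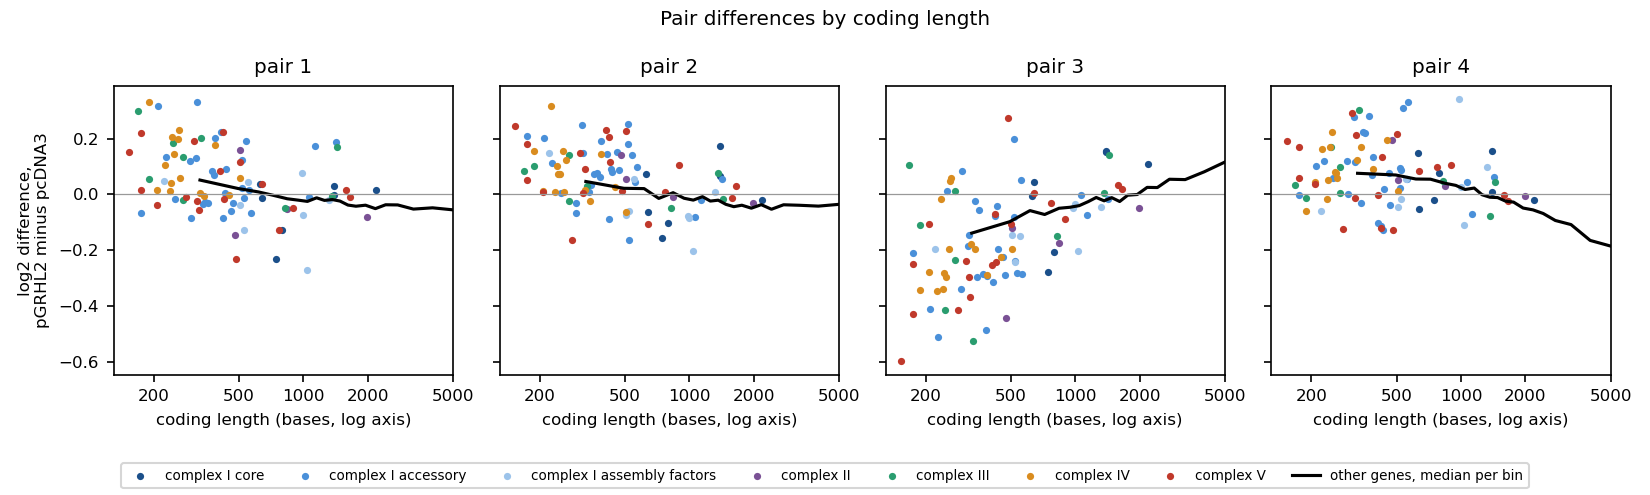
Log2 difference, pGRHL2 minus pcDNA3 (y axis), against coding length in bases (x axis, log scale) in each of the 4 pairs, with colored points for the 90 OXPHOS genes and a black line for the median of other genes with a mean value of at least 7 in bins of coding length. In pair 3, points under 450 bases lie mostly below 0, with a median of -0.24, and the points over 1000 bases lie around 0.

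The levels of the OXPHOS genes had a median of 9.11 and ranged from 2.04 to 13.88 (mean of 8 libraries, log2). Since how transcript length entered the values is not known, the order of levels between genes is uncertain. ATP5F1B (13.88), UQCRC2 (12.78), ATP5F1A (12.71), ATP5F1C (12.53) and COX4I1 (12.22) were the highest. COX7A1 (2.04), NDUFA3 (2.19), COX6B2 (2.45) and NDUFS7 (2.81) were the lowest. Low values of general subunits such as NDUFS7 went with exons shared with other genes. Reads over such bases are ambiguous when counted without strand in union mode, but whether this lowered the levels was not tested. COX7A1 (2.04), UQCRHL (5.56) and NDUFV3 (6.61) shared no bases and were low too. In GENCODE release 44 on hg38, 37 of the 90 genes shared bases of their canonical transcript with an exon of another gene. The 8 genes that shared over 50% had values between 2.81 and 5.85, and all were under 7, whereas the 53 that shared none had a median of 9.87 with 3 under 7. These 8 genes were NDUFV2 (89.97% of bases shared), NDUFA13 (83.9%), NDUFA7 (77.9%), NDUFB8 (72.0%), SDHA (69.4%), NDUFA11 (68.2%), ATP5PO (63.8%) and NDUFS7 (51.3%). Over the 90 genes, Spearman's rho of level and shared percentage was -0.66, a description. The median SD of the pair differences was 0.040 in the 8 genes that shared over 50%, against 0.15 in the 53 genes that shared none. Their median levels were 5.04 and 9.87, on a scale that shrinks the differences of weakly expressed genes. Whether the shared bases affected the differences of NDUFV2, NDUFA11, NDUFB8 and SDHA was not tested, and their values are given as uncertain. ATP5MF (37.2%) and COX6B2 (29.9%) shared fewer bases. NDUFAF5 shared none. UQCRHL and COX6A1 each had 1 near-identical copy elsewhere on the main chromosomes, and NDUFA3 had 9 copies on alternate contigs, so that their values are uncertain.

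**Figure D5:**
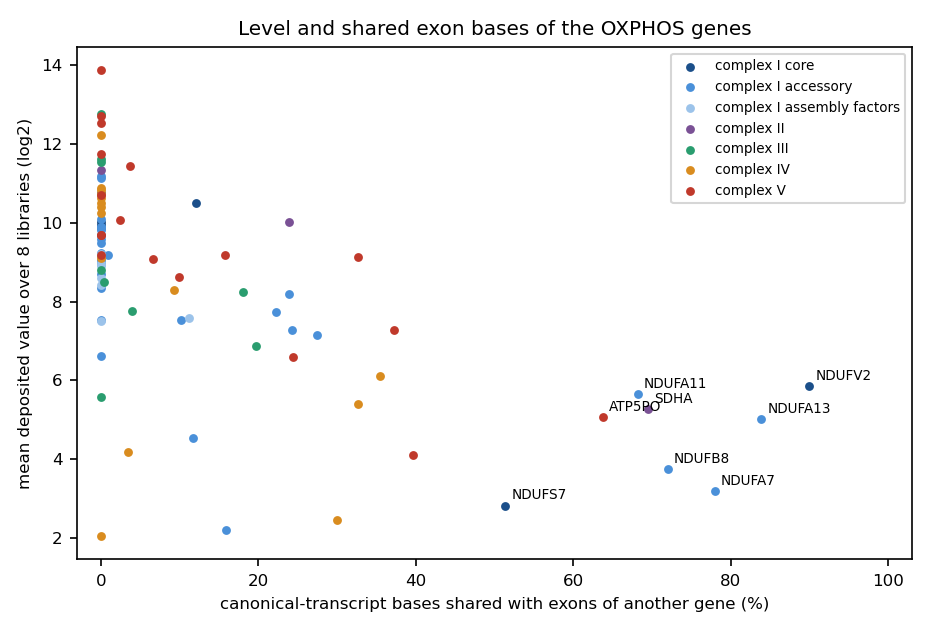
Mean deposited log2 value over 8 libraries (y axis) against the percentage of canonical-transcript bases shared with exons of another gene (x axis) for the 90 OXPHOS genes, colored by complex. The 8 genes over 50% lie between 2.81 and 5.85, and the 53 genes at 0 have a median of 9.87.

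The regulators of OXPHOS transcription were examined beside the subunits, with 15 of 17 listed genes in the table. None passed the test, 12 of 15 had a log2 FC below 0, and 5 had an unadjusted p under 0.05, all lower with pGRHL2 (33.3%, against 16.0% of all genes). The groups did not overlap in 6 of the 15 (40.0%, against 24.0% of all genes), 5 of them lower. POLRMT, the RNA polymerase of mitochondria, was at 10.08, 10.08, 10.09 and 10.06 with pGRHL2 and at 10.27, 10.27, 10.26 and 10.29 with pcDNA3. Its pair differences were nearly equal, for a log2 FC of -0.20 ± 0.03 (SD, n = 4 pairs, adjusted p = 0.0982). With replicate means removed, the values cannot show how alike the libraries of each plasmid were. NRF1, the factor of the motif above, was at 7.11, 7.11, 7.06 and 7.06 against 7.22, 7.21, 7.26 and 7.26 (log2 FC -0.15 ± 0.06, adjusted p = 0.181). YY1 (-0.19 ± 0.11, adjusted p = 0.160) and TFAM, which packages mitochondrial DNA and takes part in its transcription (-0.16 ± 0.11, adjusted p = 0.211), were lower in 4 of 4 pairs. GABPB1, a subunit of GABP, was lower in 3 of 4 pairs (-0.19 ± 0.15, adjusted p = 0.231), and GABPA, its DNA-binding partner, had a log2 FC of -0.05 ± 0.10. The coactivators PPARGC1A (-0.13 ± 0.12, adjusted p = 0.327), PPRC1 (-0.05 ± 0.12) and PPARGC1B (0.02 ± 0.10) and the receptor ESRRA (-0.06 ± 0.06) did not pass the test. TFB1M (0.04 ± 0.06), TFB2M (-0.08 ± 0.17) and TEFM (0.02 ± 0.11), which modify mitochondrial RNA or take part in its transcription, did not pass it. Neither did MYC (-0.06 ± 0.15) and HIF1A (-0.06 ± 0.19), which influence mitochondrial genes among many others. The median of the list was -0.06, and without pair 4 it was -0.13. In the fit without the replicate block, POLRMT, NRF1, YY1, TFAM, GABPB1 and PPARGC1A passed the test.

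The other genes of the pathway gave few differences. Of 48 assembly factors outside the NDUFAF family, 0 passed the test and 4 had an unadjusted p under 0.05 (8.33%, below the 16.0% of all genes). SDHAF1, which helps to insert iron-sulfur clusters into complex II, was lower in 4 of 4 pairs (log2 FC -0.24 ± 0.11, SD, n = 4 pairs, adjusted p = 0.0878). OXA1L, a membrane insertase (0.13 ± 0.04, adjusted p = 0.220), and COX15 (0.15 ± 0.05, adjusted p = 0.211) and SURF1 (0.15 ± 0.08, adjusted p = 0.266), which serve complex IV assembly, were higher in 4 of 4. These 4 were chosen after their values were seen. In the tricarboxylic acid cycle, 0 of 14 genes passed the test and 1, IDH2, had an unadjusted p under 0.05 (7.14% of the list, log2 FC 0.19 ± 0.12, adjusted p = 0.165). None of the 5 other nuclear components in the table, such as CYCS, had an unadjusted p under 0.05, and of the 76 mitochondrial ribosomal proteins 0 passed the test and 1 (1.32%) did at that level. The subunits encoded by mitochondrial DNA were not analysed here.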

How the data were processed

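RNA of 8 HepG2 libraries, 4 per plasmid, was sequenced by the authors as paired-end mRNA libraries. Per the methods and the submitters' processing notes, the authors aligned the reads with HISAT2 (2.2.1 in the notes) to hg38, used HTSeq 0.9.1 to count reads in exons in union mode without strand, dropped weakly covered genes, and took the rlog of DESeq2 (1.40.2 in the notes) divided by mean transcript length. For HISAT2 and DESeq2, the authors give other versions in their methods than in the notes. The deposited values, named as FPKM, are log2 values (3.71% were below 0), from which replicate means had been removed: same-numbered libraries deviate from their group means with a correlation of -1, so pairing could not be checked. Rlog shrinks differences of genes with few reads.

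Groups and replicate numbers came from the labels. Here, limma 3.58.1 in R 4.3.3 (lmFit, eBayes with trend) was fitted to all 17561 genes with the replicate number as a block (3 residual degrees of freedom) and Benjamini-Hochberg adjustment. The fit was also run on simulated data in which genes varied independently. Those data therefore held no shifts shared by many genes within a pair. Values after ± are SDs over 4 pairs. By rule, genes are named where they had the largest increase or decrease of their complex, 1 of the 5 smallest p, or stood on lists of principal subunits, isoforms and regulators, and 1 gene is counted but not reported by name here. Other genes, such as NDUFB8, NDUFAF2, NDUFAF4, NDUFS3, NDUFS7, NDUFS8, ATP5F1E, UQCRB and NDUFA1, were chosen for naming after their values were seen. Members and lists were chosen with earlier results of these data known. Exon overlap and coding length came from the canonical transcripts of GENCODE release 44, and copies (at least 98% identity over 50% of the transcript) from minimap2 2.31-r1302. Alternatives were the fit without the block, robust estimates, library weights, centring, a level filter, trend removal and leaving out each pair.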

Additional observations from a re-analysis of the deposited data

Results flagged for a closer look

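In 7 of 56 results examined, 1 of the 4 pairs stood far from the others (Dixon's test at the 95% level). For a single result, chance gives about 1 in 20. The 56 results share the same 4 pairs, and some are medians of sets that contain the named genes. Their count can therefore not be compared with chance. In pair 3, the median difference of complex IV was -0.224 while the other pairs lay between 0.06 and 0.08, COX8A was at -0.276 against 0.01 to 0.05, and ATP5IF1 was at -0.294 against -0.02 to 0.0045. The median of the assembly factors outside the NDUFAF family was -0.0301 in pair 3 and 0.01 to 0.02 in the others. In pair 2, COX6B2 was at 0.122 against 0.06 in each of the others, TFB1M at 0.125 against 0.0081 to 0.02, and PPARGC1B at -0.127 against 0.05 to 0.09.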

How the results depend on the processing

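With the replicate block, 0 of the 90 OXPHOS genes passed the test (limma, adjusted p under 0.05) under every alternative run: robust variance estimates, library weights, centring on all genes or on those with a value of at least 5, that filter, removal of the trends, and leaving out each pair. The smallest adjusted p among them was 0.0649 (NDUFAF5, library weights). The 5 genes with an unadjusted p under 0.05 became 3 to 7 in these fits with all pairs, and 2, 4, 17 and 5 without replicate 1, 2, 3 and 4. Without the replicate block, 3 passed as higher and 4 as lower, from 297 and 88 to 1821 and 1427 of all genes. Because the deposited values mirror within pairs, same-numbered libraries deviate in opposite directions by construction and cannot show whether the numbers pair the cultures. The log2 fold change of the named genes kept its sign and its side of the threshold in 314 of 332 comparisons that left out no pair, 12 passed only without the block, and 6 changed sign, none of which had passed the test: COX5A at 0.0107 (centred on genes of at least 5) and 0.0212 (trends on level, GC content and transcript length removed), ATP5F1B at -0.0135 and PPARGC1B at -0.00910 (the same trends), and COX7A1 at 0.000964 (library weights) and 0.00856 (centred). The cause was not tested. Leaving out each pair in turn changed the sign in 14 of 168 cases, and the log2 fold change then ran from -0.0167 to 0.123 in NDUFAF1, from -0.00447 to 0.0880 in SDHC, from -0.149 to 0.0633 in SDHD, from -0.0827 to 0.0248 in COX8A, from -0.00731 to 0.0362 in NDUFS1, from -0.0825 to 0.00265 in COX4I1, from -0.0661 to 0.0734 in COX5A, from -0.00400 to 0.0131 in ATP5F1A, from -0.00791 to 0.00116 in COX7A1, from -0.00232 to 0.0497 in UQCRHL, from -0.00361 to 0.0686 in PPARGC1B and from -0.0263 to 0.0590 in TEFM. Without replicate 1, 2, 3 or 4, the genes called in the whole table numbered 79 to 156 higher and 8 to 68 lower, from 297 and 88. The trend on coding length was chosen after seeing the data. Depth is unknown, and rlog shrinkage limits what low levels can show.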
